A study of Mus musculus with 4 samples.

Results

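The genes described here encode the signalling adaptors that carry activating receptor signals in natural killer (NK) cells and the kinases and effectors that act first on them. The 10 members were Tyrobp, Hcst, Fcer1g, Cd247, Syk, Zap70, Lck, Lat, Vav1 and Plcg2, chosen by name. Every distinct N6-methyladenosine (m6A) peak assigned to the Ensembl identifier of 1 of these genes on the mouse build GRCm38 was taken. This gave 19 of 20727 peaks, and 10 of the 12351 genes named in the peak list.

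The peaks come from methylated RNA immunoprecipitation sequencing, in which poly(A) RNA cut to fragments of about 100 nt is pulled down with an antibody against m6A and sequenced beside RNA that was not pulled down. There were 2 m6A immunoprecipitate (m6A IP) libraries and 2 input libraries, all from sorted splenic NK cells of C57BL/6 mice. According to the methods, the NK cells had first been expanded in the animals by a plasmid that expresses IL-15 (pLIVE-IL-15), which applies to both groups, so the peaks describe IL-15-expanded cells only. The 2 groups are set apart by the pull-down. No genotype is named for these libraries in the sample titles or in the methods for this assay. The deposited list gives each peak 1 fold enrichment (m6A IP over input) and 1 log10 p-value from peak calling for all libraries together. No value per library was given, the depth is unknown, and no error between replicates can be attached to any value below, so all comparisons are descriptions without a test.

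Many activating NK cell receptors have no signalling tail and pair with small membrane chains that carry an immunoreceptor tyrosine-based activation motif (ITAM). SRC family kinases such as LCK phosphorylate the ITAM tyrosines, SYK and ZAP70 dock on them, and scaffolds such as LAT bring exchange factors and phospholipase C gamma to the membrane. The m6A mark is written mainly on the A of a short consensus called DRACH and, in mouse mRNA, is known to lie mostly near stop codons and in 3′ UTRs.

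All 10 members had at least 1 peak, where 46.3% of the 21951 annotated protein-coding genes had one. The annotated genes were not limited to those expressed in these cells, and a peak needs reads. Among 82 other genes that work with the members, 74 had a peak. Of the members, 5 had 1 peak, 4 had 2 peaks and Cd247 had 6. The enrichment was low and mostly well supported. The median fold enrichment of the 19 peaks was 1.63, with a range from 1.28 to 4.74, beside 2.66 over all peaks. Over peaks of coding genes the median was 2.37. Among peaks with a p-value under 0.001 it was 1.65 in the members and 2.27 in the whole list. A fold enrichment of at least 2 was reached by 5 of 19 peaks against 63.9% of all peaks, and one of at least 5 by 0 of 19 against 34.6%. The peak-calling p-value was under 0.001 in 16 of 19 peaks against 61.5% of all peaks. In each of the 10 genes the most significant peak passed that value. The share of all genes for which this holds was not computed, so this count has no background per gene.

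To show where the mark could sit, the DRACH sequence nearest the centre of the most significant peak of each gene was read from the transcript, taking one of the GGAC type where the peak held any. DRACH is A, G or T, then A or G, then A, then C, then A, C or T, searched on the strand of the gene only, and sites may overlap. Each line gives 25 nt, 5′ to 3′, from the GENCODE transcripts for GRCm38, with the DRACH in capitals.

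Tyrobp (chr7:30414641-30415646, plus strand, across an intron): acagcggaagGGACCcggaaacaac

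Hcst (chr7:30417722-30417746, minus strand): cacttcttcaGGACAggaataaagc

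Fcer1g (chr1:171231264-171234216, minus strand, across an intron): ccttttggtgGAACAagcagccgcc

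Cd247 (chr1:165861860-165861884, plus strand): cttcttccagGAACTcggttcatcc

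Syk (chr13:52648578-52648602, plus strand): gtgtgcgctgGGACAtgtcctccct

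Zap70 (chr1:36782530-36782554, plus strand): ccgggccgagGGACCcccacagtgt

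Lck (chr4:129548690-129548714, minus strand): gtgcacacatGGACTctgactctgt

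Lat (chr7:126364004-126364028, minus strand): tcctgaaactGGACTtgctggggtg

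Vav1 (chr17:57327866-57327890, plus strand): gcgtaatttaTAACAcactgatttt

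Plcg2 (chr8:117635019-117635043, plus strand): tttccaccttGGACAactttcttaa

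A peak of this assay is wider than the motif, so a match names a candidate letter and not a measured site. Of the 15 member peaks that could be placed on the longest coding transcript of their gene, 13 held at least 1 DRACH and 9 held at least 1 GGAC. Over all placed peaks these shares were 89.7% and 54.6%. The density was 20.6 DRACH per kb in member peaks (73 in 3545 nt) and 20.2 per kb in all placed peaks, so the motif content of the members was close to that of the list as a whole. The peaks of Fcer1g, the 3′ UTR peak of Cd247 zeta and the 3′ UTR peak of Vav1 held no GGAC, and their printed sites are of other DRACH types.

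**Figure D1:**
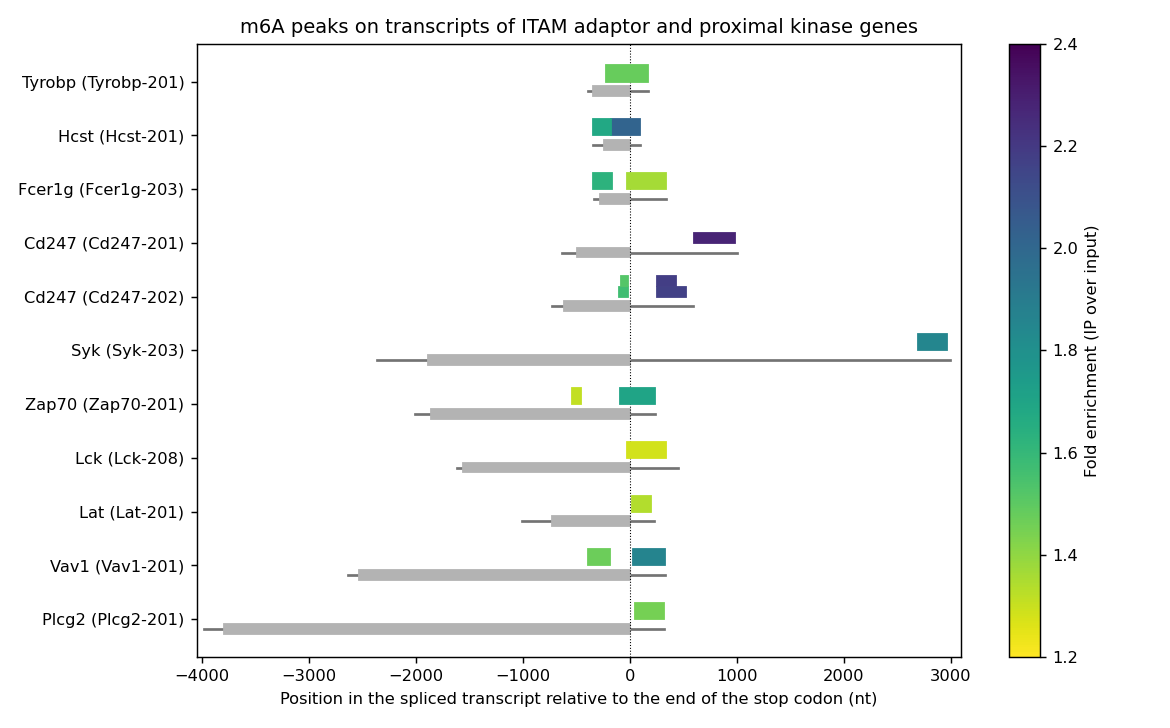
The horizontal axis gives the position in the spliced transcript in nt, with 0 at the end of the stop codon, for 1 transcript of each gene and for 2 of Cd247. Thin lines are UTRs, grey boxes coding sequence and coloured boxes m6A peaks (colour, fold enrichment). The boxes gather at the right end of most transcripts, and the peak of Syk lies farthest from the stop codon.

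The short adaptor messages lay mostly under peaks, and Tyrobp and Fcer1g had the most significant peaks of the members. Tyrobp encodes DAP12, the ITAM chain of Ly49D, Ly49H and other activating receptors. Its single peak (ENSMUSG00000030579, chr7:30414540-30417585) had a fold enrichment of 1.48 (log10 p -179), the most significant of the members and rank 236 in the list. Only 1.13% of all peaks were more significant, whereas 86.6% had a higher fold enrichment. On Tyrobp-201, a transcript of 564 nt and 114 residues, the peak ran over exons 3 to 5 and covered 389 nt (69.0%). It held 221 nt of coding sequence, the stop codon and the whole 3′ UTR of 168 nt. Of the 14 DRACH in this transcript, 11 lay under the peak.

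Hcst encodes DAP10, the partner of NKG2D, which signals through a YxxM motif (tyrosine, any residue, any residue, methionine) and not an ITAM. The peak labelled 3′ UTR by the authors (ENSMUSG00000064109, chr7:30417712-30418505) had a fold enrichment of 2.02 (log10 p -43.7.) The peak labelled 5′ UTR (chr7:30418591-30419854) had 1.68 and -7.07. Side by side they covered nt 1 to 175 and nt 176 to 442 of Hcst-201, that is all 442 nt, all 9 DRACH and all 5 GGAC. The 3′ peak was thus the stronger by both measures. Tyrobp and Hcst lie on opposite strands with their 3′ ends facing each other, and 126 nt separate them; no peak of either reached the other.

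Fcer1g encodes the FcR gamma chain, which pairs with CD16 and NKp46. Its peak over the start codon (ENSMUSG00000058715, chr1:171231204-171234336) had a fold enrichment of 1.63 (log10 p -121.) The peak over the 3′ end (chr1:171229572-171230923) had 1.36 and -119. These are nearly the same significance at both ends of the message, with the higher enrichment at the 5′ end. Together they covered 80.2% of Fcer1g-203 (683 nt, 92 residues) and 86.4% of Fcer1g-201 (674 nt, 86 residues). Both transcripts contained 0 GGAC. All 11 DRACH of Fcer1g-203 and 13 of 14 of Fcer1g-201 lay under a peak.

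At least 50% of the transcript lay under peaks in 3 of the 10 members, namely these 3 genes, against 15.3% of all genes with a placed peak. They are also the members with the shortest transcripts. Among all 273 genes with a transcript of at most 700 nt the median share under peaks was 67.0%, and 65.2% of them passed 50%. The breadth of these peaks was therefore like that of other short transcripts, and whether length accounts for it was not tested.

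The codons of the signalling tyrosines lay under the peaks of these adaptors but not under any peak of Cd247, as did most of the coding sequence in the former. Peaks covered 64.1% of the coding sequence of Tyrobp-201, 75.9% of Fcer1g-201, 100% of Hcst-201 and 0% of Cd247-201. The stretches around the first tyrosine codon of each motif are printed here, since these codons are what makes the genes adaptors. Each has 30 nt, with that codon in capitals, on the strand of the gene.

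Tyrobp-201 ITAM (chr7:30415661-30417358, across an intron): gagtcgcctTATcaggagcttcagggtcag

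Fcer1g-201 ITAM (chr1:171229913-171230081, across an intron): gatgctgtcTACacgggcctgaacacccgg

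Hcst-201 YxxM (chr7:30417812-30417841): ggtagagtcTACatcaacatgcctggcaga

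Cd247-201 ITAM 1 (chr1:165856442-165857430, across an intron): aaccagctcTACaatgagctcaatctaggg

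Cd247-201 ITAM 2 (chr1:165858464-165859233, across an intron): gaaggcgtaTACaatgcactgcagaaagac

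Cd247-201 ITAM 3 (chr1:165859810-165861018, across an intron): gatggccttTACcagggtctcagcactgcc

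The ITAM of Tyrobp-201 (residues 92 to 106) had 45 of 45 nt under the peak and 2 DRACH inside its codons. The ITAM of Fcer1g-201 (residues 65 to 79) had 45 of 45 nt under the 3′ peak and 3 DRACH inside its codons. The YxxM codons of Hcst-201 (residues 72 to 75) had 12 of 12 nt under the 3′ peak and 0 DRACH. In Cd247-201 the ITAMs at residues 72 to 86, 111 to 126 and 142 to 156 had 0 nt under a peak. The pattern was not found in the coding sequence of Fcer1g-203, whose stop codon overlaps a GAACA that is also part of the Fcer1g-201 stretch printed above. In Hcst the stop codon itself overlaps a DRACH, which lay under the 3′ peak. Stop codons that overlap a DRACH were also found in Cd247-201, Syk-203 and Lat-201, and there the site did not lie under a peak.

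Hcst stop codon (chr7:30417794-30417818, minus strand, DRACH in capitals): tggcagaggcTGACCacggcacctt

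Cd247 encodes CD3 zeta, the chain with several ITAMs that can serve NKp46 in NK cells. Its 6 peaks (ENSMUSG00000005763) differed in transcript and in strength. The strongest (chr1:165861667-165862056) had a fold enrichment of 2.28 (log10 p -92.2.) It lay only on Cd247-201, the zeta form of 164 residues. There it started 598 nt past the stop codon, covered 390 nt (39.1% of the 3′ UTR of 997 nt) with 10 DRACH and 0 GGAC, and ended 10 nt before the transcript end.

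The next pair of Cd247 peaks overlapped each other and lay only in the 3′ UTR of Cd247-202, a form of 206 residues with another 3′ end. One (chr1:165867101-165867281) had a fold enrichment of 2.18 (log10 p -3.46), and the other (chr1:165867097-165867366) had 2.17 and -3.37. A second overlapping pair lay in the last coding exon of the 206-residue forms. Those peaks (chr1:165866742-165866832 and chr1:165866767-165866827) had fold enrichments of 1.57 and 1.52, log10 p of -1.64 and -1.61, and 0 DRACH. All 4 lay wholly in exons of Pou2f1 on the opposite strand, a gene to which 0 peaks were assigned. The strand of the libraries is not given in the sources used here, so reads from Cd247 and from Pou2f1 cannot be told apart at these 4 peaks.

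The sixth Cd247 peak (chr1:165845381-165845615) had the highest fold enrichment of all member peaks, 4.74, and the weakest support, a log10 p of -1.38. It overlapped 0 nt of Cd247 exons and 235 nt of an exon of Gm37856, an unclassified transcript on the opposite strand. The 3 Cd247 peaks with a p-value not under 0.001 were this one and the coding pair. Of the 5 member peaks enriched 2 times or more, 4 belonged to Cd247, and 3 of these lay over exons of a gene on the other strand.

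**Figure D2:**
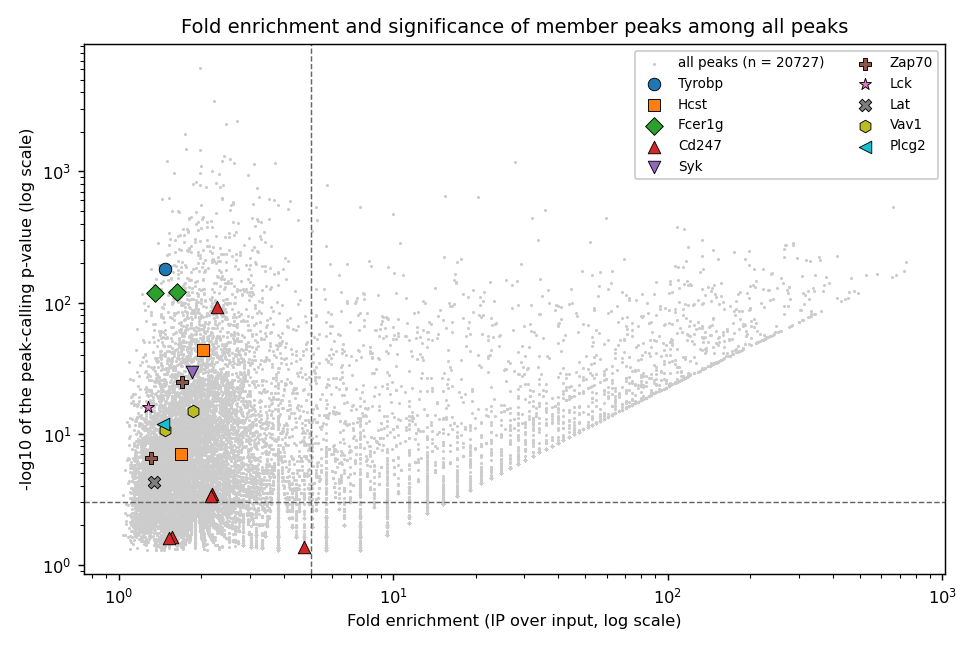
Fold enrichment (horizontal, log scale) against -log10 of the peak-calling p-value (vertical, log scale) for all 20727 peaks in grey and the 19 member peaks in colour by gene; dashed lines mark a fold enrichment of 5 and a p-value of 0.001. All member peaks lie left of 5, and Tyrobp, Fcer1g and the zeta peak of Cd247 lie highest.

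The kinases SYK and ZAP70 bind phosphorylated ITAMs through paired SH2 domains, and their messages carried peaks in different places. The single peak of Syk (ENSMUSG00000021457, chr13:52648493-52648762) had a fold enrichment of 1.85 (log10 p -29.7.) It started 2698 nt past the stop codon of Syk-203, near the end of a 3′ UTR of 2997 nt, and ended 30 nt before the transcript end. It covered 9.01% of that 3′ UTR and held 8 of the 123 DRACH and 1 of the 31 GGAC of the transcript. The short form Syk-202, whose 3′ UTR has 458 nt, does not contain the peak. The rest of Syk, with its stop codon, its coding sequence and most DRACH of the gene, had no peak.

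In Zap70 the stronger peak (ENSMUSG00000026117, chr1:36782489-36782818) had a fold enrichment of 1.70 (log10 p -24.8.) It covered 96 nt of coding sequence, the stop codon and all 234 nt of the 3′ UTR in exon 13 of Zap70-201. A weaker peak in exon 10 (chr1:36780863-36780953) had 1.31 and -6.52 and was centred in coding sequence, at -499 nt from the end of the stop codon. Syk and Zap70 thus had peaks of similar enrichment, at the far end of a long 3′ UTR in Syk and over the stop codon in Zap70.

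Lck, the SRC family kinase that phosphorylates ITAMs, had the lowest fold enrichment of the members. Its peak (ENSMUSG00000000409, chr4:129548464-129548822) had 1.28 (log10 p -16.1), and 95.4% of all peaks had a higher fold enrichment. It took in the last 25 nt of coding sequence of Lck-208 with the stop codon and 73.6% of the 3′ UTR of 454 nt. Its 3 DRACH amount to 8.36 per kb, against 22.2 per kb over the transcript.

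Lat encodes the membrane scaffold that SYK family kinases phosphorylate. Its peak (ENSMUSG00000030742, chr7:126363854-126364031) had a fold enrichment of 1.34 (log10 p -4.31), the weakest support among the genes' most significant peaks. It started 18 nt past the stop codon of Lat-201, covered 80.2% of the 3′ UTR of 222 nt and held 5 of the 18 DRACH. The printed GGACT is in the only GGAC of that transcript.

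Vav1, an exchange factor for RAC GTPases, had a peak in its 3′ UTR and one in its coding sequence. The former (ENSMUSG00000034116, chr17:57327731-57328031) had a fold enrichment of 1.86 (log10 p -14.9) and covered 92.0% of the 3′ UTR of 327 nt on Vav1-201. The latter (chr17:57315260-57324664) had 1.47 and -10.6. It spans 9405 nt of genome, but only 210 nt of it are exonic, in exons 24 to 26, centred at -288 nt from the end of the stop codon. Plcg2 encodes phospholipase C gamma 2, which makes inositol trisphosphate and diacylglycerol. Its peak (ENSMUSG00000034330, chr8:117634873-117635142) had 1.45 and -11.9, started 46 nt past the stop codon of Plcg2-201 and covered 85.7% of the 3′ UTR of 315 nt. Of the 37 GGAC in this transcript of 4298 nt, 1 lay under the peak.

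Ranked by the fold enrichment of the most significant peak, Cd247 (2.28) was followed by Hcst (2.02), Vav1 (1.86), Syk (1.85), Zap70 (1.70), Fcer1g (1.63), Tyrobp (1.48), Plcg2 (1.45), Lat (1.34) and Lck (1.28). Without replicate values no neighbours in this order can be said to differ. The order by significance was another one, led by Tyrobp, Fcer1g, Cd247 and Hcst, the 4 adaptor chains. Read counts are not given, so how far that order follows the abundance of the messages was not tested.

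The genes were chosen by name, though with earlier results of these data known, and the position of their peaks was set beside the whole list. The centre lay within 200 nt of the end of the stop codon in 10 of 15 placed peaks, against 23.4% of all placed peaks. Among these 10 were the weak overlapping pair of Cd247 over Pou2f1 exons, whereas the zeta peak of Cd247 is not on the transcript used. With a p-value under 0.001 the count was 8 of 13 against 27.5%. Within 100 nt, with no limit on the p-value, it was 5 of 15 against 13.5%, and the same weak Cd247 pair was among these 5. The whole stop codon was covered in 5 of 15, in Tyrobp, Hcst, Fcer1g, Zap70 and Lck, against 21.3%. The centre was in the 3′ UTR in 7 of 15, against 54.1%. This share depended on the rule: it was 10 of 18 against 56.7% on the coding transcript with the longest overlap, and 14 of 19 against 53.3% in the authors' region labels. The members have short 3′ UTRs apart from Syk and Cd247, with 94 to 454 nt on the transcripts used, where the median over all genes with a placed peak was 945 nt. How far that bears on the distance from the stop codon was not tested.

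Peaks also came close to the transcript end. Of the 18 member peaks on an exon of any coding isoform, 10 ended within 100 nt of a coding 3′ end, against 41.4% of all such peaks. At the level of genes 9 of 10 had such a peak, against 61.8%. The peak reached the last annotated base in Tyrobp, Hcst, Fcer1g, Zap70, Vav1 and Plcg2, 6 of 10 genes against 45.7%. In Cd247, Syk (on Syk-201) and Lat the gap to the nearest coding 3′ end was 10, 20 and 27 nt. Lck was the exception, at 115 nt.

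**Figure D3:**
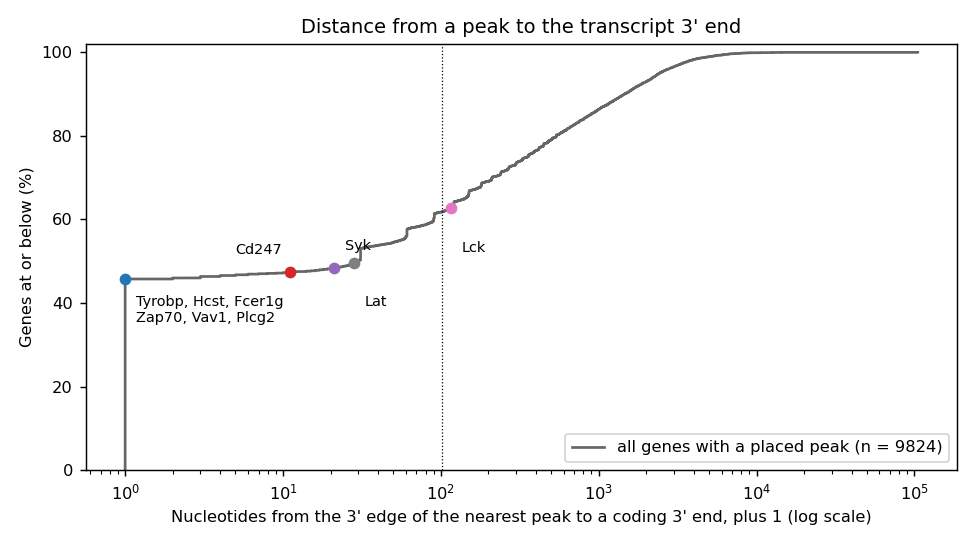
The horizontal axis gives the distance in nt, plus 1 and on a log scale, from the nearest peak edge to a coding 3′ end, and the curve gives the percent of 9824 genes at or below it. The 10 members are marked on the curve; 6 sit at the last base and only Lck lies beyond 100 nt (dotted line).

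Genes that work with the members were listed by role to place these values. Of 82 such genes 74 had a peak, against 46.3% of annotated protein-coding genes. A peak with a p-value under 0.001 was found in 65 genes, and one enriched 5 times or more in 24. Over all peaks these shares were 61.5% and 34.6%. Shares over all genes were not computed, so the counts at these thresholds, here and in the lists below, have no background per gene. The median fold enrichment of the 162 peaks was 1.80. Of 19 receptors listed 16 had a peak. The list is wider than the partners of these adaptors, since receptors such as Cd28, Cd160 and Cd226 are not known to pair with them. The median over the genes' most significant peaks was 1.75 in the receptors and 1.77 in the negative regulators, beside 1.67 in the members. It was higher in the other lists: 2.01 in phospholipase, lipid and calcium signalling, 2.02 in adaptors and exchange factors, 2.22 in other kinases and 3.79 in other ITAM chains. Over all genes in the peak list it was 3.16. Klra8 and Klra4, which encode the DAP12 partners Ly49H and Ly49D, had fold enrichments of 1.77 and 2.48 and log10 p of -155 and -49.2. Cd2, an adhesion receptor, had 2.28 and -64.4. The highest fold enrichments among the receptors were 9.48 in Cd28, 4.57 in Cd160 and 2.95 in Trem2, but no peak of Cd28 or Trem2 had a p-value under 0.001 (lowest log10 p -2.39 and -2.72). Ly49 genes are near-identical copies, so reads could have been split between them. Cd226, Siglech and Clec5a had no peak.

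The other ITAM chains had higher fold enrichments than the members. Of 5 genes 4 had a peak enriched 5 times or more, against 0 of the 10 members and 34.6% of all peaks. The highest values were 31.6 in Cd3g, 30.3 in Cd3e and 7.59 in Cd79a, chains of the T cell and B cell receptors. The most significant peaks were weaker in enrichment, with 3.79 in Cd3g (log10 p of -46.8), 2.69 in Cd79b (-27.6) and 2.55 in Cd3d (-9.43). The Cd3e peak had a log10 p of -6.35. Read counts are not given, so how few reads the high folds of these T and B cell genes rest on is unknown.

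Among 15 other kinases and their regulators 11 had a peak. Yes1 and Lyn, of the SRC family, and Btk, of the TEC family, reached 66.4, 45.5 and 13.9. The most significant peaks had lower folds, 2.56 in Lyn (log10 p of -142), 1.74 in Ptprc, the phosphatase CD45 (-123), and 2.22 in Csk (-64.5). Src, Blk, Pag1 and Tec had no peak. Among 19 adaptors and exchange factors 18 had a peak and only Sos1 had none. Rac2, the GTPase downstream of VAV proteins, had the most significant peak of these pathway lists (1.79, log10 p of -343), followed by Grb2 (2.08, -78.8) and Lcp2, which encodes SLP-76 (1.97, -39.9). The highest folds there were 26.6 in Sit1, 8.22 in Skap1 and 6.64 in both Grb2 and Vav3, of which the Skap1 and Vav3 peaks touched no exon of the longest coding transcript.

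All 14 genes of phospholipase, lipid and calcium signalling had a peak, and 7 of them had one enriched 5 times or more. The inositol trisphosphate receptor gene Itpr1 stood highest with 266 and a log10 p of -256, followed by 39.8 in Plcg1 and 30.3 in the calcium channel gene Orai1. The protein kinase C gene Prkcd had 21.4 (-120). The peaks given for Itpr1, Plcg1 and Prkcd touched no exon of the longest coding transcript of their gene. All 10 negative regulators had a peak. Cbl, a ubiquitin ligase, reached 81.6, Dgka, a diacylglycerol kinase, 17.1, and the adaptor gene Dok1 7.24. The most significant peaks of Cbl and Dgka were other ones, with 2.02 (log10 p of -25.0) and 1.24 (-4.37). By significance Dok1 (log10 p of -98.5) led Ptpn6, the phosphatase SHP-1 (3.25, -86.0), and Dok2 (1.73, -46.4).

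**Figure D4:**
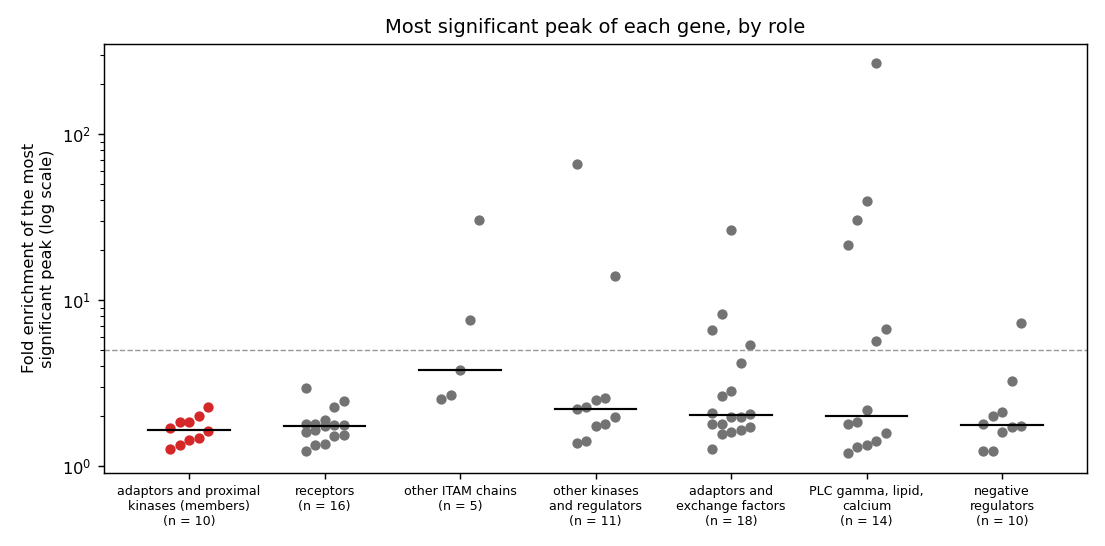
Each point is the fold enrichment (log scale) of the most significant peak of 1 gene, grouped by role, with the members in red, the median as a bar and a dashed line at 5. The members span 1.28 to 2.28, and every other group but the receptors has genes above 5.

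Several members are used by other leukocytes too, so the cell label was set against peaks in marker genes, as presence of a peak and not as expression. Peaks with a p-value under 0.001 were found in 9 of 9 NK cell markers (Ncr1, Klrb1c, Klrk1, Eomes, Tbx21, Gzmb, Prf1, Itga2 and Nkg7), with log10 p from -6.39 to -322. T cell markers had peaks in 3 of 8, namely Cd3e, Cd3d and Cd3g, with none in Cd4, Cd8a, Cd8b1, Cd5 and Cd6. B cell markers had peaks in 4 of 7 (Cd79a, Cd79b, Pax5 and Cd22). Myeloid markers had peaks with a p-value under 0.001 in 7 of 7, with log10 p of -322 in Csf1r, -306 in S100a8, -143 in Lyz2, -124 in S100a9, -49.3 in Cd68, -49.0 in Cd14 and -35.3 in Adgre1. The median fold enrichment over all peaks of a list was 1.45 in NK cell and 1.55 in myeloid markers, beside 1.63 in the members. It was 4.74 in T cell and 2.69 in B cell markers. A low fold enrichment was thus not particular to the members. Tyrobp, Fcer1g, Syk and Plcg2 are also expressed by myeloid cells, and the part of such RNA in their peaks was not tested. In bulk RNA, fewer cells of a type and less RNA per cell cannot be told apart.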

How the data were processed

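Peaks were taken from the 1 deposited list. According to the labels and the methods, the authors trimmed reads, aligned them with HISAT2 (version 1.0) to GRCm38, called peaks with exomePeak and annotated them with ChIPseeker (version 1.0). How the 2 replicates of each group were combined is not given in the sources used here. In the deposited list the fold enrichment is a ratio of immunoprecipitate to input, and the significance is a score that holds the unadjusted peak-calling p-value as its log10. The list has 0 columns with a value per sample, so depth is unknown and no test was possible; replicates may be technical.

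Of 20751 rows, 24 repeated another and were dropped. Gene models and transcript sequences were those of GENCODE M21 for GRCm38; 19 gene identifiers were not in it. A peak was placed on the transcript with the longest coding sequence using the middle of its exonic bases; 15224 peaks (73.5%) could be placed. Positions in the text of a named member use the longest complete coding transcript or the isoform named. ITAMs were sought in the translated coding sequence as Y, 2 residues, L or I, a gap of 6 to 12 residues and the same again. Placement and motif search were tested on simulated data with 2000 transcripts and recovered 100% of the known positions. Python 3.11.15, pandas 2.3.3 and matplotlib 3.10.9 were used.

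The members, gene lists and alternatives were chosen with earlier results of these data known. Named were all members, genes under their peaks, and of each pathway list the 3 genes with the highest fold enrichment, the 3 with the most significant peak and those without a peak, and the marker genes with a peak. Some genes of the pathway and marker lists that this rule would name are counted but not reported by name here.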

Additional observations from a re-analysis of the deposited data

How the results depend on the processing

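Of 29 alternatives for 9 results, 21 left the value near the one reported and 8 moved it; 6 were chosen after seeing the data, namely the complete transcript model, 4 on the distance to the 3′ end and the stop codon window with a p-value under 0.001, and these 6 changed little (8 to 10 genes near a 3′ end, 46.7% with the complete transcript and 61.5% near the stop codon). Counting only peaks with a fold enrichment of at least 2 left 2 members with a peak (Hcst and Cd247), and at least 5 left 0, where 10 had a peak of any fold. The shares of all genes at these thresholds were not computed. The share of member peaks in the 3′ UTR was 46.7% by the centre on the longest coding transcript (95% Wilson interval 24.8 to 69.9, counting error only) and 73.7% by the authors' region column (53.3% of all peaks). The share near the stop codon was 66.7% within 200 nt, 33.3% within 100 nt (13.5% of all placed peaks), 86.7% within 400 nt (37.5%) and 33.3% for peaks with any base over the stop codon (21.4%). The shares within 200, 100 and 400 nt count the weak overlapping pair of Cd247 peaks. Motif density was 20.6 per kb for DRACH, 3.95 for GGAC and 14.7 for RRACH (R is A or G), which differ because fewer letters match. Merging overlapping peaks of a gene left 17 peaks. No paired analysis was possible because values for single libraries are absent from the file used, although replicates 1 and 2 are numbered in both groups; leaving out a replicate was not run for the same reason.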

Other observations

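Values of paralogues of the members are given here, chosen after they were seen. Plcg1 had a single peak with a fold enrichment of 39.8 (log10 p -8.96), which does not touch the longest coding transcript of that gene, whereas Plcg2 had 1.45 and -11.9 over its 3′ UTR. Vav3 had a single peak of 6.64 with a log10 p of -2.00, also off the longest coding transcript. The most significant peak of Vav2 had 2.64 and -12.7, beside 1.86 and -14.9 in Vav1. Lat2, the relative of Lat, had 1.27 and -3.26 in its coding sequence, beside 1.34 and -4.31 in Lat.

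The peak of Cd3e and the strongest peak of Orai1 had the same pair of values, 30.3 for the fold enrichment and -6.35 for the log10 p. The highest folds of Grb2 and Vav3 were also equal, at 6.64. Whether such repeated values come from ratios of few reads was not tested.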
